A study of Homo sapiens with 3 samples.

Results

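Transcript levels of genes of the DNA damage response and DNA repair were described in OCI-Ly10 cells exposed to the degrader MZ1. The genes were chosen by name, though with earlier results of these data known. The list held 46 checkpoint, homologous recombination, Fanconi anaemia, end joining, excision and mismatch repair genes. Of these, 44 were found among the 15808 genes of the deposited table. The IDs of ATRIP, the partner of ATR, and NHEJ1, an end joining scaffold, were not matched in the table and were not analysed here. OCI-Ly10 is an established human lymphoma line (diffuse large B cell lymphoma, ABC subtype). MZ1 brings BET bromodomain proteins to the VHL ubiquitin ligase and so marks them for degradation. All 3 libraries, replicates 1, 2 and 3, belong to the same group, OCI-Ly10 cells given MZ1 for 6 h. Untreated cells were not analysed here, so the values below are levels in treated cells of 1 line and their spread between libraries, and no effect of MZ1 was estimated. Whether they came from separate cultures is not in the labels, so differences between them may be technical. The chi-square test used below sets the counts of a gene against counting error alone and treats reads as independent, so its p-values say nothing of the spread between cultures, and most of the genes tested pass it.

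As background, cells meet DNA damage with sensors, signalling kinases and several repair routes. ATM and ATR signal broken DNA and stalled replication to the checkpoint kinases. Broken ends are joined directly by the Ku proteins and their ligase, or copied from the sister chromatid by homologous recombination, which works mainly in S and G2 phase. Damaged bases, bulky lesions and mispaired bases are removed by base excision, nucleotide excision and mismatch repair. B cells also draw on several of these routes when they cut, join and mutate their own immunoglobulin genes.

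The libraries of replicates 1, 2 and 3 had 5474462, 1441246 and 1314812 counts. Values are given as CPM, counts relative to the TMM-scaled library size, where 1 count is worth 0.200, 0.629 and 0.767 CPM in replicates 1, 2 and 3. A gene with no count could have up to 0.600, 1.89 and 2.30 CPM there (3 counts per library, counting error only). Levels of different genes are compared as CPM per kb of merged exon, except where plain CPM is given, which is not corrected for length. All 8 B cell markers checked reached 1 CPM in every library, with a summed level of 6346, 2180 and 4182 CPM in replicates 1, 2 and 3. Of 8 T cell markers 3 were in the table and 0 reached 1 CPM in every library (summed 19.2, 1.26 and 2.30 CPM). Of 8 myeloid markers 5 were in the table and 3 reached it (summed 62.8, 45.3 and 46.0 CPM), of which MPO was highest at 24.7 ± 6.22 CPM (SD, n = 3). CD33, another myeloid marker, had 0, 1 and 0 counts.

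Reads were found in every library for nearly all of the repair genes. At a threshold of 1 CPM, which lies below the limit of a count of 0 in replicates 2 and 3, 43 of the 44 genes passed in every library, against 68.0% of all genes in the table. At 5 CPM, above that limit, 41 did (93.2%, against 48.5%). The gene that missed 1 CPM was NEIL1, a glycosylase for oxidised bases, with 0, 8 and 13 counts in replicates 1, 2 and 3. Per length the repair genes lay above the typical gene: their median was 6.15 ± 0.822 CPM per kb (SD over 3 libraries), and that of all genes averaging 1 CPM or more was 2.95 ± 0.160. Without length the medians were 36.2 ± 3.52 and 13.2 ± 1.07 CPM. Together the 44 genes made up 0.431%, 0.531% and 0.434% of all counts in the 3 libraries.

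Levels per kb formed a short top, a broad middle and a low end. XRCC6 and XRCC5, the Ku70 and Ku80 subunits that bind broken ends, led with 247 ± 66.4 and 130 ± 9.38 CPM per kb (SD, n = 3, as for all values written this way). PARP1, which senses strand breaks and makes poly(ADP-ribose), followed with 113 ± 10.1, and APEX1, the main nuclease for abasic sites, with 107 ± 35.5 CPM per kb. These 4 genes held 59.0%, 49.3% and 55.9% of the counts of all 44 in replicates 1, 2 and 3, and they were also the 4 highest when the longest transcript served as the length. Another 38 genes lay between 1 and 25 CPM per kb. The lowest were NEIL1 at 0.721 ± 0.719 and ERCC6, the CSB protein of transcription-coupled repair, at 0.182 ± 0.0860 CPM per kb. Few places in this order were distinct: of 43 neighbouring pairs, only XRCC6 over XRCC5, APEX1 over RAD23B and FANCD2 over PRKDC had library ranges that did not overlap. Compared within each library, the higher gene was above its neighbour in all libraries for 7 of the 43 pairs, those named included.

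**Figure D1:**
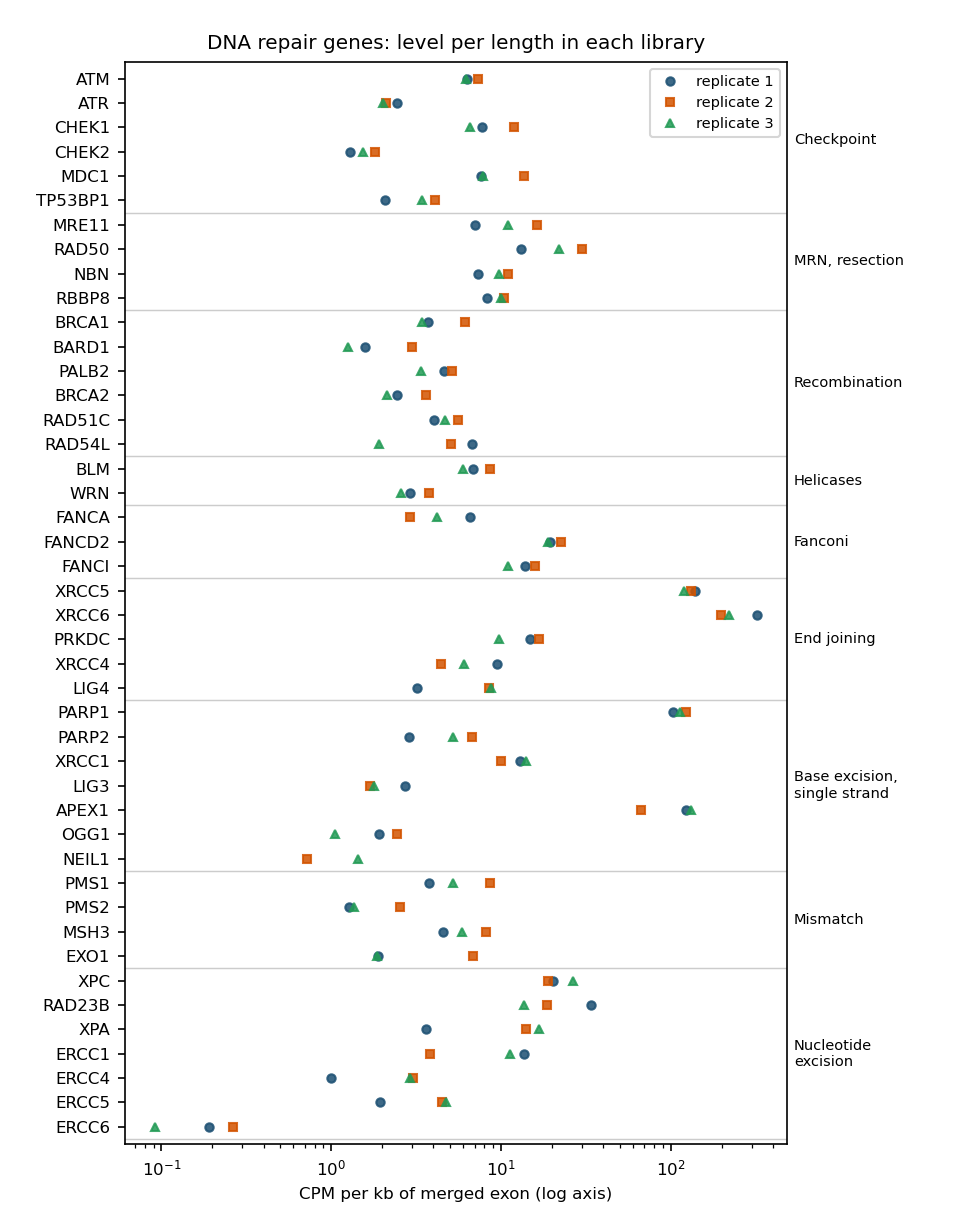
Level of each repair gene in each library, in CPM per kb of merged exon on a log axis, grouped by role. Circles, squares and triangles are replicates 1, 2 and 3, and NEIL1 in replicate 1 had no count and is not drawn. XRCC6, XRCC5, PARP1 and APEX1 stand apart on the right, ERCC6 on the left.

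Promoter sequence was looked up for the genes, as shared motifs are one thing the list did not use. RefSeq (GRCh38.p14) gave a window of 250 bases before to 50 after the start for 39 of the 44 genes. E2F factors drive many genes of S phase, and an E2F-like word (TTTCCCGC, TTTGGCGC, TTTCGCGC or TTTGCCGC, either strand) was found in 7 of the 39 windows (17.9%), beside 3.33% of 27305 windows of the same length in the table. Windows of 30 bases around these words are shown 5′ to 3′ on the gene's strand, with the word in capitals, because they are the stretches that these genes have in common.
FANCA, chr16:89816801-89816830, minus strand: actacaccgcgGCGGCAAAgccaaacgcaa
FANCD2, chr3:10026424-10026453, plus strand: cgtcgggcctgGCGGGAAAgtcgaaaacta
XRCC6, chr22:41621315-41621344, plus strand: tgtccaagttggtcgcttccctGCGCCAAA
PMS2, chr7:6009131-6009160, minus strand: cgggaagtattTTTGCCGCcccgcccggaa
MSH3, chr5:80654534-80654563, plus strand: gcgcggtcaagTTTGGCGCGAAAttgtggc
EXO1, chr1:241848197-241848226, plus strand: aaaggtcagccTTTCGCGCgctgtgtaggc
XPC, chr3:14178822-14178851, minus strand: cctgcgcccTTTCCCGCctctcgcgagaac
In MSH3 the capitals are 2 overlapping words, 1 on each strand. FANCA, FANCD2 and EXO1 are among the 9 genes with an S phase peak (below) that had a window, and the other 4 are not on that list. The GC box (GGGCGG, either strand) was in 31 windows (79.5%, against 44.6% of all), the CCAAT box (CCAAT) in 18 (46.2%, against 35.7%), and the longer NRF1-like word in 1, that of ERCC6 (2.56%, against 1.36%). A match is a string of letters and says nothing of binding in these cells. The 27305 background windows include genes not expressed here, whereas nearly all the repair genes were expressed. The shares therefore compare unlike sets, and shares among expressed genes only were not counted.

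The checkpoint genes ranged widely in level and 3 of the 6 measured passed the chi-square test between libraries, which 67.2% of all tested genes passed. ATM, the kinase that answers broken DNA (ENSG00000149311.16, chr11:108222484-108369102), had 152, 175 and 149 CPM in replicates 1, 2 and 3. ATR, the kinase for stalled forks (chr3:142449235-142578826), had 30.4, 26.4 and 25.3 CPM. Both had a narrow range, the highest library exceeding the lowest by 1.17-fold and 1.20-fold, and neither passed the chi-square test of equal expression (adjusted p = 0.137 and 0.568). CHEK1, the kinase downstream of ATR, had 50.4, 77.9 and 43.0 CPM, with replicate 2 above the others (chi-square test, adjusted p = 8.31e-05). CHEK2, its counterpart downstream of ATM, was low throughout, with 5.80, 8.17 and 6.90 CPM from 29, 13 and 9 counts. MDC1, a scaffold on damaged chromatin, had 61.6, 110 and 62.9 CPM, and replicate 2 again stood above a pair of near-equal libraries (chi-square test, adjusted p = 4.86e-09). TP53BP1, which shields broken ends from resection, had 27.0, 52.8 and 44.5 CPM and was lowest in replicate 1 (chi-square test, adjusted p = 4.55e-06).

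The MRE11-RAD50-NBN complex, which tethers and trims broken ends, was higher in replicates 2 and 3 than in replicate 1 for each subunit. RAD50 (chr5:132556019-132646344), its ATPase, had 129, 293 and 214 CPM. MRE11 (chr11:94415578-94493908), its nuclease, had 54.2, 125 and 85.2 CPM. NBN, which links it to ATM, had 45.0, 67.9 and 59.8 CPM. All 3 passed the chi-square test (adjusted p = 2.04e-42, 2.37e-18 and 0.00188), as did 67.2% of all tested genes. In all 3 genes replicate 1 was lowest and replicate 2 highest. Of all genes of at least 10 CPM, 28.7% were highest in replicate 2, and 2542 of 7494 were lowest in replicate 1. RBBP8, the CtIP protein that starts resection with the complex, had 42.4, 52.8 and 50.6 CPM in the same order, and did not pass (chi-square test, adjusted p = 0.205). Per kb RAD50 was the highest of the 4 at 21.7 ± 8.40 CPM, and MRE11, NBN and RBBP8 lay close together at 11.5 ± 4.62, 9.35 ± 1.89 and 9.55 ± 1.08.

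Among homologous recombination genes, 5 of 6 were highest in replicate 2 (28.7% of all genes of at least 10 CPM) and 5 of 6 lowest in replicate 3 (25.5% of all). BRCA1 (chr17:43044295-43170245), the ubiquitin ligase that promotes resection, had 34.0, 56.6 and 31.5 CPM. BARD1, its obligate partner, had 9.60, 18.2 and 7.67 CPM. BRCA2 (chr13:32315474-32400266), a mediator of strand exchange, had 29.8, 44.6 and 26.1 CPM. The 3 genes share a pattern in which replicates 1 and 3 lie close together and replicate 2 above them (chi-square test, adjusted p = 2.95e-04, 0.0131 and 0.0114). PALB2, the bridge between BRCA1 and BRCA2, had 21.8, 24.5 and 16.1 CPM. RAD51C, which also acts in homologous recombination, had 24.6, 33.9 and 28.4 CPM. Neither passed (chi-square test, adjusted p = 0.344 and 0.175). RAD54L, a DNA motor protein of this route, was the exception to the pattern with 21.6, 16.3 and 6.14 CPM (chi-square test, adjusted p = 0.00183). Its replicate 3 value rests on 8 counts, beside 108 and 26.

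Neither of the RecQ helicases passed the test between libraries. BLM, which dissolves recombination intermediates, had 46.0, 57.8 and 39.9 CPM, and WRN, mutated in Werner syndrome, had 16.4, 21.4 and 14.6 CPM (chi-square test, adjusted p = 0.0928 and 0.365). Of the Fanconi anaemia genes, which repair crosslinks between strands, FANCD2 and its partner FANCI were high in all libraries. FANCD2 had 164, 189 and 159 CPM and FANCI 107, 124 and 85.2 CPM, with replicate 2 highest and replicate 3 lowest in each. FANCI passed the chi-square test and FANCD2 did not (adjusted p = 0.0115 and 0.0916), and no test of that difference was made. FANCA, a subunit of the core ligase, ran the other way, with 63.8, 28.3 and 40.7 CPM and replicate 1 highest (chi-square test, adjusted p = 2.26e-07).

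All 5 end joining genes in the table passed the chi-square test (67.2% of all genes), in different directions. XRCC6 (chr22:41621119-41664048) had 1060, 649 and 726 CPM and was highest in replicate 1. XRCC5 (chr2:216107464-216206303) had 756, 717 and 654 CPM, a 1.16-fold range that passed the chi-square test on 3781, 1141 and 853 counts (adjusted p = 0.00109). The 2 Ku subunits therefore did not keep step, since XRCC6 spanned 1.63-fold (chi-square test, adjusted p = 1.94e-61). PRKDC, the kinase DNA-PKcs that Ku recruits, had 229, 257 and 150 CPM and was lowest in replicate 3 (chi-square test, adjusted p = 6.14e-09). LIG4 (chr13:108207439-108218368), the ligase of this route, had 14.0, 37.1 and 38.4 CPM. XRCC4, the protein that stabilises LIG4, had 25.2, 11.9 and 16.1 CPM. The 2 partners moved apart: XRCC4 was highest and LIG4 lowest in replicate 1 (chi-square test, adjusted p = 0.00497 and 6.49e-10).

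Base excision and single-strand break repair held some of the highest and some of the lowest genes. PARP1 (chr1:226360691-226408079) had 736, 881 and 816 CPM, and PARP2, its smaller relative, 11.8, 27.7 and 21.5 CPM. Both were lowest in replicate 1 and highest in replicate 2 (chi-square test, adjusted p = 9.09e-08 and 8.88e-05). APEX1 (chr14:20455191-20457772) had 232, 126 and 249 CPM, with replicate 2 lowest, 1.98-fold below replicate 3 (chi-square test, adjusted p = 8.93e-16). XRCC1, the scaffold for this repair, had 45.0, 34.6 and 48.3 CPM, and LIG3, the ligase it carries, 35.0, 22.0 and 23.0 CPM. LIG3 passed the chi-square test and XRCC1 did not (adjusted p = 0.0147 and 0.184). OGG1, which removes oxidised guanine, had 16.8, 21.4 and 9.21 CPM (chi-square test, adjusted p = 0.0561). NEIL1 had too few counts to test.

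The 4 mismatch repair genes on the list were all highest in replicate 2 (28.7% of all genes of at least 10 CPM, a level PMS2 did not reach). EXO1 (chr1:241847967-241895148), the nuclease that removes the mismatched strand, had 7.80, 28.3 and 7.67 CPM, so replicate 2 stood 3.69-fold above replicate 3 (chi-square test, adjusted p = 7.98e-10). PMS1, a MutL homologue, had 20.6, 47.1 and 28.4 CPM. MSH3, which recognises larger loops, had 21.4, 38.3 and 27.6 CPM. Both passed the chi-square test (adjusted p = 5.48e-07 and 0.00223). PMS2, the endonuclease subunit, had 5.00, 10.1 and 5.37 CPM and did not (chi-square test, adjusted p = 0.102). PMS2, CHEK2 and FANCD2 have near-identical partial copies in the genome, between which the counting could split reads, so their levels are uncertain.

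Nucleotide excision repair included the gene with the widest range between libraries, and all 6 of its tested genes passed the chi-square test (67.2% of all genes). XPA (chr9:97674909-97697357), which verifies the lesion, had 6.60, 25.8 and 30.7 CPM, the widest range of any repair gene with counts in every library, at 4.65-fold. ERCC4 (chr16:13920157-13952345), the XPF nuclease, had 8.40, 25.8 and 24.5 CPM. ERCC5 (chr13:102807146-102876001), the XPG nuclease, had 16.0, 37.1 and 39.1 CPM. These 3 genes were all low in replicate 1 and close together in replicates 2 and 3 (chi-square test, adjusted p = 7.56e-13, 6.68e-08 and 3.54e-08). ERCC1, the partner of ERCC4, did not follow it, with 76.4, 21.4 and 62.9 CPM and its low value in replicate 2 (chi-square test, adjusted p = 1.47e-12). XPC, which finds the lesion, had 97.6, 90.5 and 127 CPM and was highest in replicate 3 (chi-square test, adjusted p = 0.00657). RAD23B, its stabilising partner, had 156, 86.7 and 62.9 CPM and was highest in replicate 1 (chi-square test, adjusted p = 9.97e-21). ERCC6 had 16, 7 and 2 counts and was not tested.

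Set against all genes, the share of repair genes called depended on the scaling and on the counts. The chi-square test called 30 of 42 repair genes (71.4%; 31 at unadjusted p under 0.05), and 67.2% of all 10016 genes tested, those averaging 10 counts or more. With DESeq2 size factors it called 34 (81.0%, against 67.0%) and with column totals 36 (85.7%, against 67.6%). Among genes averaging 50 counts or more the test called 24 of 32 repair genes (75%, against 81.1%). With libraries thinned to the smallest total it called 25 of 40 (62.5%, against 63.0%). Over the libraries the median SD of log2 values was 0.448 for the repair genes and 0.493 for all genes averaging 10 CPM or more. Between replicates 2 and 3 alone, 22 of 43 repair genes (51.2%) and 33.8% of all genes were called. Of the 30 genes, 18 were called there too, and TP53BP1, NBN, FANCA, XRCC6, XRCC4, LIG4, PARP2, LIG3, MSH3, XPA, ERCC4 and ERCC5 were not. ATM, BLM, FANCD2 and OGG1 were called there and not over all 3 libraries (chi-square test, adjusted p = 0.0475, 0.0361, 0.0268 and 0.0193). Without replicate 2 the count was 16 of 42 (38.1%), beside 45.2% of all genes.

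The direction of the differences was less like that of all genes. Of the 40 repair genes of at least 10 CPM, 25 (62.5%) were highest in replicate 2, against 28.7% of all such genes. Replicate 1 was highest for 9 (22.5%, against 43.1%) and replicate 3 for 6 (15%, against 28.2%). The count for replicate 2 depended on the scaling: it was 29 of 40 with column totals, where 39.5% of all genes were highest there, and 21 of 40 after differences were centred by GC content, where 31.9% were. Scaling by column totals moved the median difference of all genes between replicates 2 and 1 by 0.27 on the log2 scale.

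**Figure D2:**
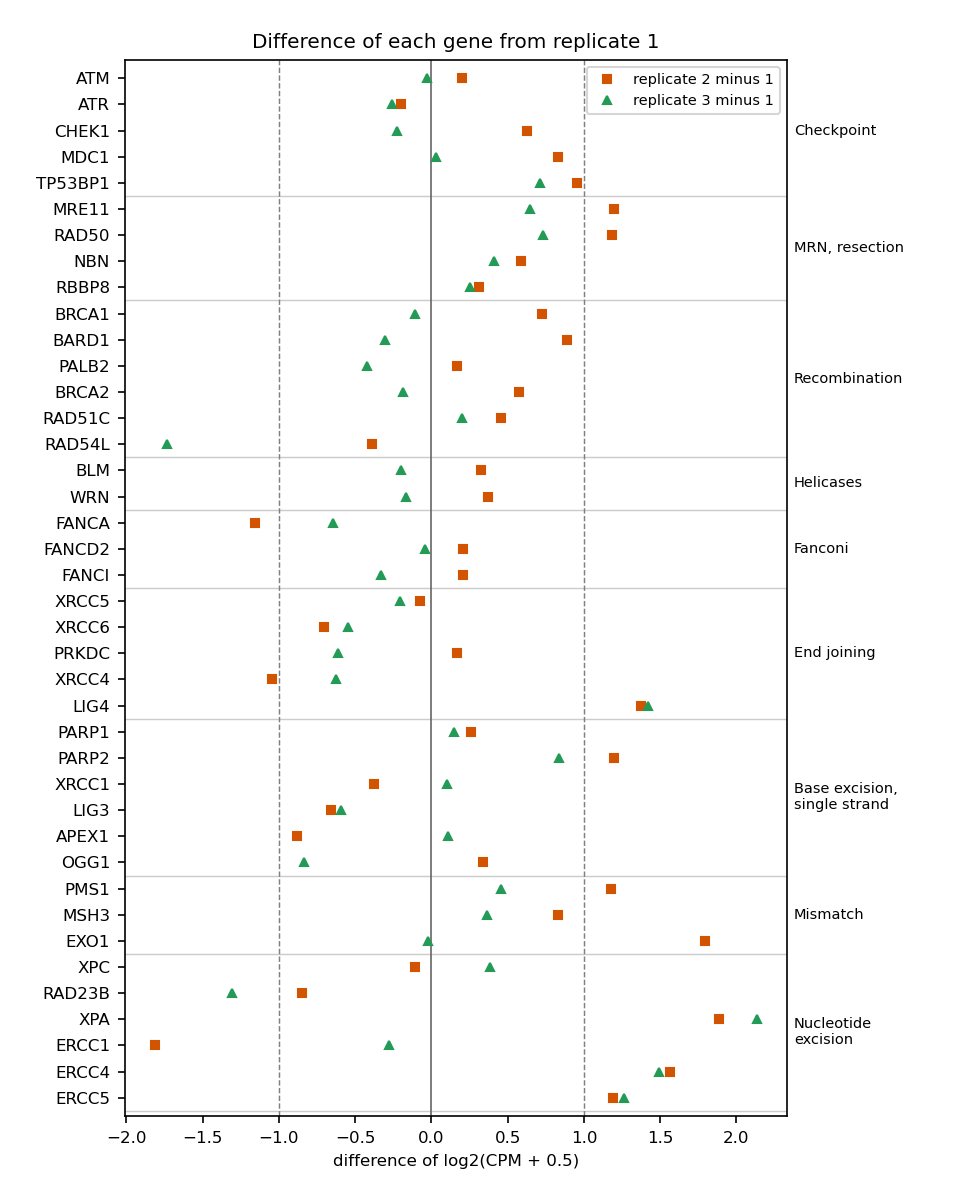
Difference of log2(CPM + 0.5) from replicate 1 for the 40 repair genes of at least 10 CPM, squares for replicate 2 and triangles for replicate 3, with dashed lines at a 2-fold difference. LIG4, XPA, ERCC4 and ERCC5 lie beyond the right line in both, and the MRN subunits lie right of 0 in both.

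A small set of genes was at least 2-fold higher in both shallower libraries than in replicate 1. They were LIG4, XPA, ERCC4 and ERCC5, 4 of 40 (10%), against 6.55% of all genes at that level. None was at least 2-fold lower in both (0 of 40, against 10.2%). The raw counts of these 4 genes were nearly level although replicate 1 held 3.80-fold more counts in all than replicate 2: 33, 41 and 40 for XPA, 42, 41 and 32 for ERCC4, 70, 59 and 50 for LIG4 and 80, 59 and 51 for ERCC5. Between replicates 2 and 3 alone none of them passed (chi-square test, adjusted p = 0.744 for XPA, 0.750 for ERCC4, 0.922 for LIG4 and 0.971 for ERCC5). On counts this low the test misses small differences. The 4 genes were picked by this rule, so their shared low level in replicate 1 follows from it and is no sign of shared control. The stretches of the XPA and ERCC4 windows that lie before the start and outside annotated exons are shown as examples, with GC boxes in capitals.
XPA, chr9:97697358-97697590, minus strand: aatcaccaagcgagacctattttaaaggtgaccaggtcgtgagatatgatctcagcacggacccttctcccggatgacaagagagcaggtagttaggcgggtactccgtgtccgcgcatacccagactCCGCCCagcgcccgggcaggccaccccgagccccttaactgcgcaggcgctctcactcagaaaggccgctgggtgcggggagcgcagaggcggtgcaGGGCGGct
ERCC4, chr16:13919904-13920153, plus strand: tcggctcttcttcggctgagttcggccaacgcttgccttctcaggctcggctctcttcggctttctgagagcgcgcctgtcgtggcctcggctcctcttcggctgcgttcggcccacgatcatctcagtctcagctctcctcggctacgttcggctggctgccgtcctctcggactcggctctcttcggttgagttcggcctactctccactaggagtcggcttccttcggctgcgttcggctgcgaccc
The XPA stretch holds 2 GC boxes, 1 on each strand, and the ERCC4 stretch none, and neither holds a CCAAT box or an E2F-like word.

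The 10 repair genes whose transcripts are known to peak around S phase (CHEK1, BRCA1, BRCA2, BARD1, RAD54L, BLM, FANCA, FANCD2, FANCI and EXO1) were set beside the others. Of them 8 were highest in replicate 2 (28.7% of all genes of at least 10 CPM) and 9 lowest in replicate 3 (25.5% of all). Of the other 30 repair genes at that level, 17 were highest in replicate 2 and 8 lowest in replicate 3. Most repair genes outside the S phase list were thus highest in replicate 2 as well. The chi-square test called 8 of the 10 S phase genes and 22 of the 32 others tested (67.2% of all tested genes). Their median log2 difference was -0.80 for replicate 3 minus 2, beside -0.16 for the other repair genes and 0.10 for all genes of at least 10 CPM. For replicate 2 minus 1 the medians were 0.45, 0.33 and -0.14, and for replicate 3 minus 1 they were -0.22, 0.13 and -0.07. The gap between S phase and other repair genes was thus -0.64 for replicate 3 minus 2 and -0.34 for replicate 3 minus 1. After centring by GC content it was -0.55 and -0.50, while the gap for replicate 2 minus 1 changed sign, from 0.13 to -0.05. These medians describe the libraries and were not tested. The lowest counts of the S phase genes in replicate 3 were 8 for RAD54L and 10 each for BARD1 and EXO1. Fewer cells in S phase, less RNA per cell and a technical difference between libraries cannot be told apart in these bulk RNA data.

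GC content moved with the differences between libraries. Transcripts of the repair genes were richer in A and T (median GC 42.7%, against 47.4% of all genes averaging 1 CPM or more) and had longer exons in sum (median 6112 against 4755 bp). Over the 40 genes, which share the libraries and their depth, Spearman's rho between GC content and the log2 difference of replicate 2 minus 1 was -0.46, and it was -0.43 over all 7494 genes of at least 10 CPM with a GC value. For replicate 3 minus 1 it was -0.27 (all genes -0.14), and for replicate 3 minus 2 it was 0.23 (all genes 0.47). With expected counts scaled by GC bin, the chi-square test called 25 of 42 repair genes (59.5%) and 60.9% of all genes. NBN, BARD1, BRCA2, FANCA, FANCI and LIG3 were no longer called, and OGG1 was (chi-square test, adjusted p = 0.00819). Each of the 4 genes that were 2-fold higher in replicates 2 and 3 was still called. That was likely from the start, as they were picked for differences of at least 2-fold. The medians of their GC bins for replicate 2 minus 1 were at most 0.32 on the log2 scale.

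The size of the adjustment differed by gene. ERCC1, with 56.1% GC, had a log2 difference of -1.81 for replicate 2 minus 1, and -1.03 once centred within its GC bin. FANCA, with 55.4% GC, went from -1.16 to -0.38. XPA, with 42.4% GC, went only from 1.89 to 1.68, and RAD50, with 41.4% GC, from 1.18 to 0.98. MDC1 was pushed further from 0, from 0.83 to 1.17, as its GC content of 53.3% lies where other genes were lower in replicate 2.

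**Figure D3:**
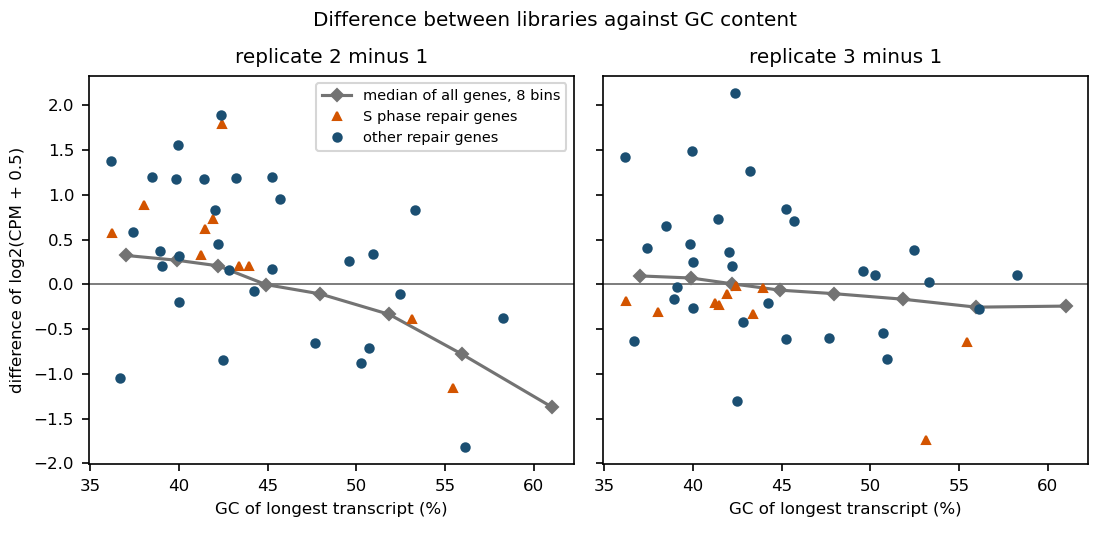
Difference of log2(CPM + 0.5) of replicates 2 (left) and 3 (right) from replicate 1 against the GC percentage of the longest transcript, for the 40 repair genes of at least 10 CPM. Triangles are S phase genes, circles the other repair genes, and the grey line joins the medians of all genes in 8 GC bins, which fall from 0.32 to -1.37 in the left panel.

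Reads from opposite strands limit some of these values, since the sources used here do not say how the counting treated strand. Exons of 25 of the 44 repair genes (56.8%) overlap exons of a gene on the other strand, against 43.7% of all genes averaging 1 CPM or more. The chi-square test called 16 of 24 genes with such an overlap (66.7%) and 14 of 18 without (77.8%), beside 67.2% of all genes. With expected counts scaled by GC bin, 11 of the 18 without an overlap were called, beside 60.9% of all genes. ERCC1 shares 28.6% of its exon bases with CD3EAP, a subunit gene of RNA polymerase I, which had 9.60, 16.3 and 43.7 CPM and did not follow the dip of ERCC1 in replicate 2. TP53BP1 shares 28.7% with TUBGCP4 (17.4, 8.17 and 13.0 CPM), and LIG3 shares 29.1% with RFFL (7.80, 10.1 and 5.37 CPM). NEIL1 shares 26.4% with MAN2C1, which had 257, 45 and 61 counts, while NEIL1 had none in replicate 1. ERCC4 shares 25.7% with AC010401.1, which had 0, 4 and 4 counts beside the 42, 41 and 32 of ERCC4. XPC shares 23.8% of its exon bases with AC093495.1 (2, 12 and 17 counts) and 6.63% with LSM3, an RNA-binding protein gene (112, 313 and 377 CPM), and both partners were highest in replicate 3, as XPC was. FANCA shares 23.6% with ZNF276 (20.6, 18.2 and 25.3 CPM), RAD54L 25.1% with LRRC41 (36.6, 22.6 and 33.8 CPM) and OGG1 25% with CAMK1 (0.600, 6.91 and 4.60 CPM). XPA, LIG4 and ERCC5 have no such overlap. Of 29 partners in the table, 9 had no count in replicate 1, the deepest library, and 7 of these had counts in both other libraries, among them TH2LCRR opposite RAD50 (0, 11 and 11 counts) and FANCD2OS opposite FANCD2 (0, 16 and 11 counts). Whether this bears on the levels of the repair genes was not tested.

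Partners and counterparts were compared within each library as log2 ratios of CPM per kb. Of 16 pairs, 14 lay on the same side of 0 in all 3 libraries, and for 9 of the 16 the mean ratio exceeded 2-fold. With 3 libraries the exact two-sided sign-flip permutation test cannot go below p = 0.25, or 0.286 after Benjamini-Hochberg adjustment over the 16 pairs, and these 14 pairs all had that value. PARP1 exceeded PARP2 by 4.56 ± 0.49 on the log2 scale (23.5-fold), the widest gap. XRCC1 exceeded LIG3 by 2.59 ± 0.35, CHEK1 exceeded CHEK2 by 2.37 ± 0.32 and ATM exceeded ATR by 1.57 ± 0.20. BRCA1 exceeded BARD1 by 1.18 ± 0.18 and FANCD2 exceeded FANCI by 0.60 ± 0.16. These are differences in RNA per length and say nothing of protein.

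The ratio differed little over the libraries for some partners and more for others. The log2 ratio of MRE11 to RAD50 was -0.90, -0.88 and -0.98 in replicates 1, 2 and 3, an SD of 0.05, although both genes differed by over 2-fold between replicates 1 and 2. The ratio of BLM to WRN was 1.22, 1.17 and 1.18 (SD 0.02), where WRN had 82, 34 and 19 counts. Counting error alone spreads such ratios by more than these SDs, so the closeness does not show a fixed ratio for either pair. NBN to RAD50 was less steady, at -0.84, -1.43 and -1.16. XRCC5 to XRCC6 was -1.22, -0.59 and -0.88, so Ku80 RNA was below Ku70 RNA in every library. ERCC1 to ERCC4 ran from 3.71 in replicate 1 to 0.34 in replicate 2 and 1.94 in replicate 3. XRCC4 to LIG4 changed side, at 1.54, -0.88 and -0.51 (exact sign-flip permutation test, p = 1), as did XPC to RAD23B, at -0.73, 0.00 and 0.96 (exact sign-flip permutation test, p = 0.75). TP53BP1 to BRCA1 was -0.83, -0.60 and -0.01, and PALB2 to BRCA2 was 0.71 ± 0.21. PMS2 to PMS1 was -1.67 ± 0.18.

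**Figure D4:**
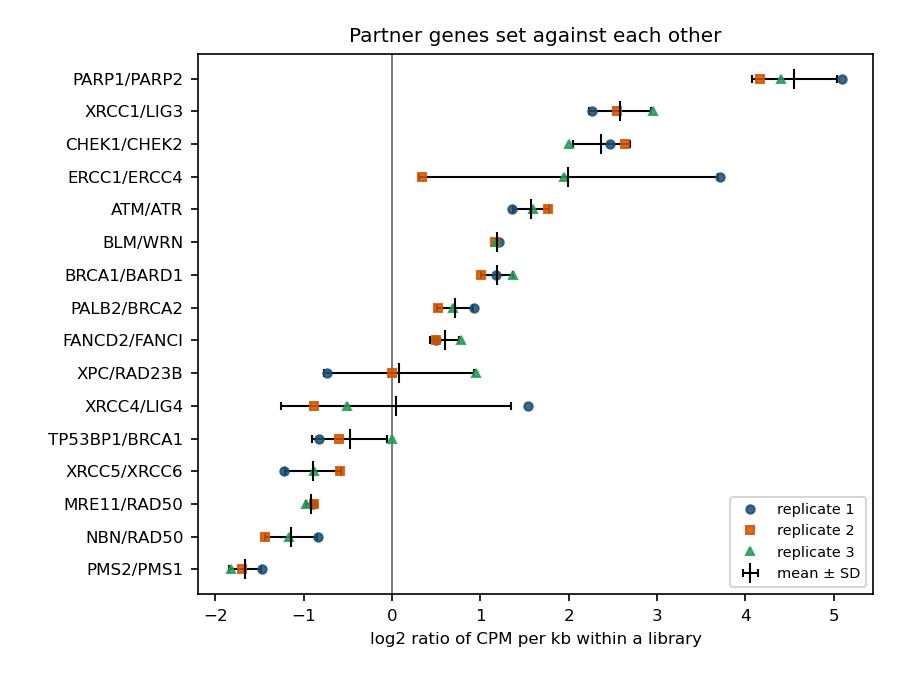
Log2 ratio of CPM per kb within each library for 16 pairs of repair genes. Symbols are replicates 1, 2 and 3, and the bar is the mean with its SD. MRE11/RAD50 and BLM/WRN have nearly coinciding symbols, while XRCC4/LIG4, ERCC1/ERCC4 and XPC/RAD23B spread widely.

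Other genes of the same routes, 86 by list and 85 in the table, were nearly all expressed too, but at lower levels and with another direction. Their medians were 3.80 ± 0.485 CPM per kb and 18.3 ± 2.40 CPM. These lay nearer the medians of all genes averaging 1 CPM or more (2.95 and 13.2) than those of the 44 genes (6.15 and 36.2). Of the 85 genes, 82 reached 1 CPM in all libraries. Of 78 tested, 54 (69.2%) were called as varying, beside the 67.2% of all genes. Of 61 genes of at least 10 CPM, 31 were highest in replicate 1, 19 in replicate 2 and 11 in replicate 3. For all genes of that level the shares were 43.1%, 28.7% and 28.2%. By route, 13 of 15 tested checkpoint and chromatin genes were called, 12 of 18 in homologous recombination, 7 of 11 in crosslink repair, 6 of 8 in end joining, 7 of 12 in base excision and 9 of 14 in nucleotide excision.

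Genes at the top and the bottom of each route by mean CPM, without correction for length, were as follows. TIMELESS, a fork protection factor, led the checkpoint list with 198, 244 and 123 CPM, and RNF8, a ubiquitin ligase, was lowest with 10, 3 and 6 counts. RPA1, which coats single strands, led homologous recombination with 281, 123 and 164 CPM, and RAD54B was lowest with 2, 4 and 1 counts. USP1, which removes ubiquitin from FANCD2, led crosslink repair with 119, 135 and 139 CPM and did not pass the test between libraries (chi-square test, adjusted p = 0.147), while FANCB was lowest with 16, 8 and 3 counts. POLQ, the polymerase of microhomology joining, had 37.2, 75.4 and 43.0 CPM and POLL, another end joining polymerase, 35, 3 and 7 counts. FEN1, the flap nuclease, had 196, 216 and 249 CPM and NTHL1, a glycosylase, 21, 3 and 0 counts. In nucleotide excision the lowest was GTF2H2, a TFIIH subunit with a near-identical copy, with 5, 2 and 2 counts. Among the leading genes named here, TIMELESS and POLQ were highest in replicate 2, RPA1 in replicate 1, and USP1 and FEN1 in replicate 3.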

How the data were processed

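RNA-seq libraries (3) of the OCI-Ly10 line after 6 h of MZ1 were analysed. The authors deposited a table of raw read counts for 15808 genes and a table of log2 CPM for the same genes. Both were made with STAR, edgeR and build hg38, per the submitters' processing notes. The counting tool, its strand setting, all versions and the annotation used are not given in the sources analysed. Checked against the counts, the deposited log2 values are the log2 of the count over 0.663, 0.751 and 0.801 times the column total of replicates 1, 2 and 3, plus 0.452 CPM.

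Counts were scaled by TMM (factors 0.914, 1.10 and 0.991; edgeR 4.0.16, R 4.3.3). Symbols, positions, exons and transcript GC came from GENCODE release 29 (15668 IDs matched without their version), and opposite-strand overlap from pyranges 0.1.4. The chi-square test set the 3 counts of a gene against equal expression (Poisson), where that gene averaged 10 counts or more, and p-values were adjusted by Benjamini-Hochberg over all such genes (threshold 0.05). It compares libraries, not conditions, and was checked on simulated data. Log2 values have a pseudocount of 0.5 CPM, which understates differences of low genes. GC centring subtracts the median of all genes in each of 8 GC bins.

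The genes, lists and pairs were chosen with earlier results of these data known. All 44 genes in the table are named. Of the other repair genes and the marker lists, the text names those highest or lowest by mean CPM (1 of them is not reported here), and opposite-strand partners that stand beside a gene. Alternatives were DESeq2 1.42.0 size factors, column totals, the deposited log2 values, other lengths, pseudocounts and thresholds, and each replicate left out. The pair ATRIP/ATR could not be computed.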

Additional observations from a re-analysis of the deposited data

How the results depend on the processing

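Under the alternatives run, the shares of repair genes expressed and the gaps between S phase and other repair genes moved by less than 1.5 times or less than the spread, though the gap for replicate 2 minus 1 turned from 0.13 to -0.05 with GC centring. The counts highest in replicate 2 or 2-fold higher than in replicate 1, with their alternatives, were chosen after seeing the data. The share of repair genes called as varying was 81.0% with DESeq2 size factors (67.0% of all genes) and 85.7% with column totals (67.6% of all genes). At a mean count of 50 or more the share was 75% (81.1% of all genes), and with thinned libraries 62.5% (63.0% of all genes). Leaving out a replicate, it ranged from 38.1% without replicate 2 (45.2% of all genes) to 60.5% without replicate 3 (56.2% of all genes). The share highest in replicate 1 ranged from 30% without replicate 3 (56.1% of all genes) to 52.6% without replicate 2 (54.5% of all genes). The number 2-fold higher than in replicate 1 ranged from 4 to 9. The 9 arose without replicate 3, where replicate 2 decides alone, and 11.6% of all genes then met the rule. The median level ranged from 33.8 to 40.0 CPM, highest without replicate 1, and was 49.7 CPM from the deposited log2 values. Per kb the median was 7.37 over genes without opposite-strand overlap, 8.48 from the deposited values and 8.78 by longest transcript. Among genes without opposite-strand overlap 1 of 2 pairs kept to the same side of 0, and without the length correction 11 of 16 did. Mean log2 ratios changed sign without length for PALB2/BRCA2 (-0.66), TP53BP1/BRCA1 (0.023) and XRCC4/LIG4 (-0.67). Leaving out a replicate, XRCC4/LIG4 ranged from -0.70 (without replicate 1) to 0.51, and XPC/RAD23B from -0.36 (without replicate 3) to 0.48. The causes were not tested, beyond the fewer genes or samples that an alternative leaves. No paired analysis was possible because the labels give 1 group. Depth limits the low genes: in replicates 2 and 3 a gene under 1.89 or 2.30 CPM cannot be told from a count of 0.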
